A study of Mus musculus with 21 samples.

Results

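The 9 genes described here encode transcriptional regulators that set or maintain the identity of brown fat: Ppargc1a, Ppargc1b, Prdm16, Ebf2, Zic1, Lhx8, Esrra, Esrrg and Ppara. They were picked by gene symbol from 28541 gene models in a table of read counts, and each symbol had a single model. RNA sequencing counts came from whole brown adipose tissue (BAT), which burns lipid for heat, and from white vastus (WV), a thigh muscle of mostly fast fibres. The groups were BATI4KO mice and their floxed littermates. The name BATI4KO is read here, as the study is known, as deletion of a loxP-flanked Irf4, a transcription factor gene, in brown adipocytes. The labels give neither the Cre driver nor the strain, age or sex, and they do not say which cells of the tissue kept the gene.

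BAT had 6 BATI4KO and 5 floxed libraries, and WV had 5 BATI4KO and 5 floxed libraries. In BAT, 3 BATI4KO and 3 floxed libraries have short title numbers (1, 2 or 3). The remaining libraries have long tags, such as KO_5492 (BATI4KO) or FX_5497 (floxed). The tags KO_5492, KO_5494, FX_5497 and FX_5503 occur in both tissues. Neither the meaning of these numbers nor the animal behind each library is labelled, and p-values therefore measure only how these libraries spread, which may be technical. Total counts were 20219479 to 41773148 in BAT and 30479508 to 40328627 in WV. Counts-per-million values (CPM, counts scaled to library size) are given on 1 scale for all 21 libraries, and CPM per kilobase (CPM divided by the length of the gene model) where genes are compared with each other.

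PGC-1α and PGC-1β, the products of Ppargc1a and Ppargc1b, are coactivators: they bind no DNA themselves but are recruited by nuclear receptors such as PPARα (Ppara) and the estrogen-related receptors ERRα and ERRγ (Esrra, Esrrg), and together these proteins drive genes of mitochondria and fat burning. Prdm16 and Ebf2 commit precursor cells to the brown fat lineage and keep it, and Zic1 and Lhx8 mark classical brown fat depots. IRF4 is known to bind PGC-1α and to act with it on the Ucp1 gene in brown adipocytes. Oxidative muscle uses the same coactivators and receptors.

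The tissues carried the markers of their labels, and Irf4 was reduced in BAT of BATI4KO mice. The 6 adipocyte markers summed to 4040 to 7183 CPM over all BAT libraries and 57.2 to 196 CPM over all WV libraries, and 16 contractile muscle genes summed to at least 291367 CPM in every WV library. Irf4 was at 5.36 ± 0.40 CPM in BATI4KO BAT (SD, n = 6) and 29.2 ± 12.3 CPM in floxed BAT (SD, n = 5), which passed the edgeR quasi-likelihood test (log2 difference -2.45, SE 0.24, adjusted p = 0.0026). The highest BATI4KO library, at 5.95 CPM, lay below the lowest floxed one, at 17.9 CPM. In WV it was at 3.73 ± 0.45 CPM in BATI4KO and 5.10 ± 1.22 CPM in floxed libraries (SD, n = 5 each) and did not pass the test (log2 -0.48, SE 0.19, edgeR adjusted p = 0.489). Ucp1, the uncoupling protein of brown fat, averaged 1892 ± 849 CPM in BATI4KO BAT (SD, n = 6) and 2813 ± 1647 CPM in floxed BAT (SD, n = 5), with no WV library above 0.412 CPM. Its genotype difference in BAT did not pass (log2 -0.66, SE 0.21, edgeR adjusted p = 0.203).

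Muscle transcripts were present at different amounts in the BAT libraries. The summed level of 16 contractile muscle genes was 612 to 17836 CPM in BATI4KO BAT and 151 to 1171 CPM in floxed BAT, and no gene of this list was at 0 in any library. BATI4KO library 3 was the highest. All 16 had a positive genotype difference in BAT (median log2 +2.68, against -0.01 over all genes), and 0 passed the test. Among 4 lymphocyte markers the summed level was 2.81 to 10.1 CPM in BATI4KO BAT and 1.39 to 2.48 CPM in floxed BAT. The summed level of 9 brown adipocyte markers was 2744 to 6150 CPM in BATI4KO BAT and 3644 to 9201 CPM in floxed BAT, with a negative difference for all 9 (median log2 -0.36) and 0 passing. The part of these differences in the results below was not tested except where a value is given. In whole tissue, fewer cells of a type and less RNA per cell cannot be told apart.

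In BAT, 0 of the 9 regulators passed the test between genotypes, where 0.0436% of the 16051 genes tested passed (7 genes, 3 higher and 4 lower). At an unadjusted p under 0.05 stood 2 of the 9, Ebf2 and Esrrg, against 14.7% of all genes tested. The libraries of the genotypes overlapped for all 9, where 0.928% of the genes tested did not overlap. The median log2 difference of the 9 was 0.01, against -0.01 over all genes.

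**Figure D1:**
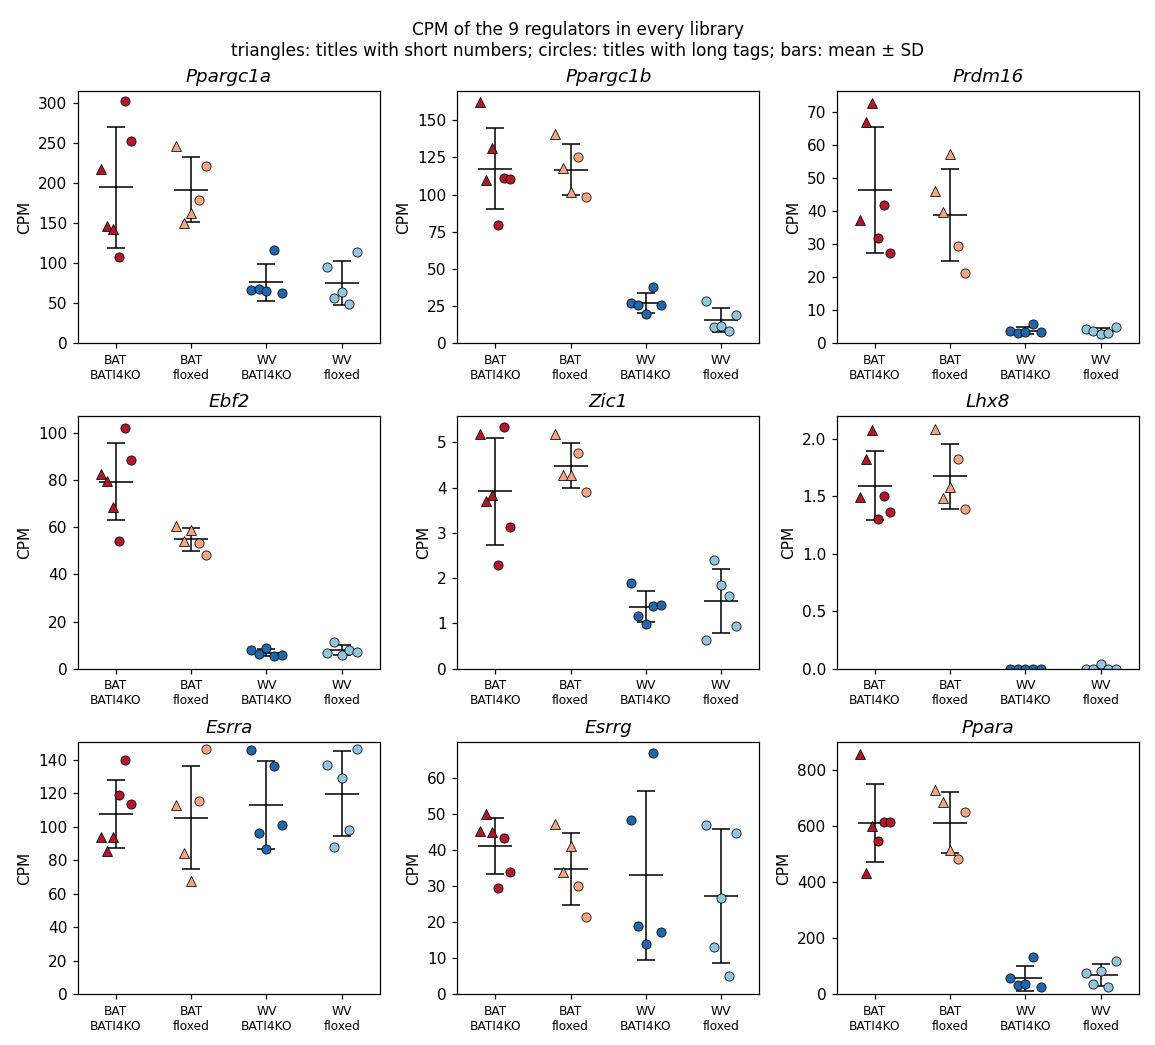
CPM of each regulator (vertical axis, linear, from 0) in each of the 21 libraries, with BATI4KO left of floxed for BAT (red) and WV (blue), triangles for titles with short numbers and circles for long tags, and bars for mean ± SD. A reader should see that genotypes overlap in both tissues, that Ebf2 lies higher in 5 of 6 BATI4KO BAT libraries, and that Esrra and Esrrg, on this trimmed-mean scale, are about as high in WV as in BAT.

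Both coactivators had differences near 0 between genotypes in BAT. Ppargc1a, encoding PGC-1α, was at 107, 182 and 302 CPM (lowest, median and highest) in the 6 BATI4KO libraries, against 149, 163, 179, 220 and 246 CPM in the floxed libraries. BATI4KO libraries lay on both sides of the floxed ones: 2 above all of them and 3 below all of them. The log2 difference was -0.02 (SE 0.24, edgeR adjusted p = 0.982). Ppargc1b, encoding PGC-1β, was at 79.8, 111 and 162 CPM (lowest, median and highest) in BATI4KO libraries, against 98.2, 102, 118, 126 and 141 CPM in floxed libraries. The log2 difference of Ppargc1b was 0.02, with an SE of 0.14 (edgeR adjusted p = 0.974).

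Among the lineage regulators, Ebf2 had the smallest p. Ebf2, a transcription factor that opens chromatin at brown fat genes together with PPARγ, was at 54.4 (KO_5414), 68.8, 79.8, 82.8, 88.7 and 102 CPM in BATI4KO BAT, against 48.3, 53.2, 54.2, 59.0 and 60.6 CPM in floxed BAT. All BATI4KO libraries but KO_5414 lay above every floxed library. The log2 difference was +0.53 (SE 0.15), with an unadjusted edgeR p of 0.00314 and an adjusted p of 0.180, so it did not pass. It was +0.41 among libraries with short numbers (edgeR adjusted p = 0.656) and +0.69 among those with long tags (edgeR adjusted p = 0.265). DESeq2, as an alternative to edgeR, called Ebf2 at an adjusted p of 0.0376 and none of the other 8 regulators, among 372 genes it called in all. With the contractile muscle score as a covariate the log2 difference of Ebf2 was +0.57 (edgeR adjusted p = 0.682). Over all alternatives, left-out libraries included, it was +0.41 to +0.69, with adjusted p from 0.0376 to 0.682.

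Prdm16, the zinc finger regulator that holds brown fat precursors to their fate, was at 27.1, 39.4 and 72.7 CPM (lowest, median and highest) in BATI4KO BAT, against 21.3, 29.3, 39.6, 46.0 and 57.0 CPM in floxed BAT. Prdm16 differed by +0.35 on the log2 scale (SE 0.18, edgeR adjusted p = 0.398), and by +0.14 with the contractile muscle score as a covariate. Libraries with short numbers had 37.1 to 72.7 CPM of Prdm16 (n = 6) and those with long tags 21.3 to 41.7 CPM (n = 5), each set holding both genotypes. Title style is a covariate in the BAT test.

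Zic1 and Lhx8 rested on few counts in BAT of both genotypes. Zic1, a zinc finger factor, was at 2.29, 3.78 and 5.34 CPM (lowest, median and highest) in BATI4KO BAT, against 3.90, 4.28, 4.29, 4.77 and 5.19 CPM in floxed BAT. Of the BATI4KO libraries, 4 lay below all floxed libraries and 1 above all of them, and the log2 difference of -0.19 did not pass (SE 0.20, edgeR adjusted p = 0.684). Lhx8, a LIM homeobox factor, rested on 48 to 71 counts per library in BATI4KO BAT and 44 to 90 in floxed BAT. That was 1.59 ± 0.30 CPM in BATI4KO BAT (SD, n = 6) and 1.67 ± 0.28 CPM in floxed BAT (SD, n = 5), and the log2 difference of -0.07 did not pass (SE 0.16, edgeR adjusted p = 0.883).

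Among the nuclear receptors, Ppara had nearly the same mean in BAT of both genotypes. It was at 434, 608 and 859 CPM (lowest, median and highest) in BATI4KO BAT, against 482, 515, 651, 686 and 731 CPM in floxed BAT (log2 0.01, SE 0.16, edgeR adjusted p = 0.987). Esrra was at 107.5 ± 20.3 CPM in BATI4KO BAT (SD, n = 6) and 105 ± 30.5 CPM in floxed BAT (SD, n = 5), with a log2 difference of -0.01 (SE 0.12, edgeR adjusted p = 0.969). Esrrg was at 29.5, 44.0 and 50 CPM (lowest, median and highest) in BATI4KO BAT, against 21.4, 29.9, 33.7, 40.9 and 47.1 CPM in floxed BAT. Its log2 difference of +0.32 did not pass (SE 0.13, edgeR adjusted p = 0.297).

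In WV, 0 of the 8 regulators tested passed between genotypes, where 0.00688% of 14529 genes passed (1 gene). Lhx8 was not tested there, with 0 counts in BATI4KO and 1 count in floxed libraries over the whole group. At an unadjusted p under 0.05 stood 1 of the 8, Ppargc1b, against 8.91% of all genes tested. Ppargc1b was at 19.6, 25.3, 25.4, 27.3 and 37.6 CPM in BATI4KO muscle, against 8.03, 10.7, 11.4, 19.2 and 28.2 CPM in floxed muscle. All 5 BATI4KO libraries lay above the floxed mean of 15.5 CPM, and FX_5413 overlapped with them. It did not pass, at +0.79 on the log2 scale (SE 0.29, edgeR adjusted p = 0.466), or at +0.48 among the 7 WV libraries with low Rmrp described below (edgeR adjusted p = 0.999).

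The other 7 regulators had log2 differences of -0.29 to +0.26 in WV. Ppargc1a was at 62.8, 64.9, 66.6, 68.0 and 116 CPM in BATI4KO and 48.5, 56.5, 64.0, 94.5 and 114 CPM in floxed libraries (log2 -0.01, SE 0.24, edgeR adjusted p = 0.990). Ebf2 was at 6.78 ± 1.51 CPM in BATI4KO and 7.82 ± 2.23 CPM in floxed muscle (SD, n = 5 each; log2 -0.22, SE 0.21, edgeR adjusted p = 0.792). The difference of the genotype effect between BAT and WV passed for 0 of 9 regulators, where 0.018% of 16632 genes passed. It was +0.74 for Ebf2 (SE 0.25, edgeR adjusted p = 0.326) and -0.79 for Ppargc1b (SE 0.35, edgeR adjusted p = 0.432).

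**Figure D2:**
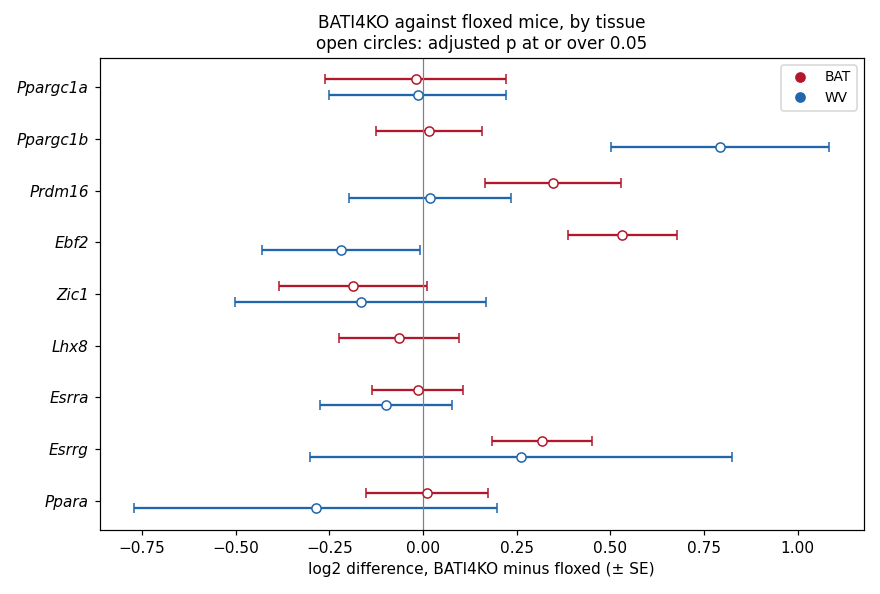
Log2 difference of each regulator, BATI4KO minus floxed, in BAT (red) and WV (blue), with SE from edgeR's test as bars and open circles for values that did not pass. All circles are open, Ebf2 in BAT (+0.53) and Ppargc1b in WV (+0.79) lie farthest from 0, and Lhx8 has no value in WV.

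Because the 2 coactivators belong to 1 family, their ratio was compared as well, on the log2 scale and per length of the gene model with 0.5 counts added. In BAT it was -0.13 ± 0.52 in BATI4KO (SD, n = 6) and -0.10 ± 0.31 in floxed libraries (SD, n = 5), with a difference of -0.03 (exact permutation test within title style over 200 relabellings, two-sided, p = 0.905). The 2 coactivators thus stood at about equal levels per length in BAT. In WV the log2 ratio of Ppargc1a to Ppargc1b was 0.49, 0.51, 0.62, 0.83 and 0.92 in BATI4KO libraries, against 0.95, 1.61, 1.68, 1.77 and 1.79 in floxed libraries. No BATI4KO library reached the lowest floxed one, FX_5413, though the gap to it was only between 0.92 and 0.95. The means were 0.67 ± 0.19 in BATI4KO and 1.56 ± 0.35 in floxed muscle (SD, n = 5 each), a difference of -0.89 (exact permutation test over 252 relabellings, two-sided, p = 0.00794, the smallest these allow; adjusted p = 0.0318 over the 4 ratio tests).

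The WV libraries also differed in Rmrp, the noncoding RNA of an RNA-processing enzyme. Rmrp was at 3.58 to 3.94 on the log2 CPM scale in all 5 BATI4KO libraries, at 3.91 and 4.48 in FX_5413 and FX_5415, and at 6.71 to 7.07 in FX_5497, FX_5503 and FX_5514. Those 3 had the highest coactivator ratios. Among the 7 libraries with low Rmrp, a comparison added after the data were seen, the difference in ratio was -0.60 (5 BATI4KO against 2 floxed libraries, exact permutation test, two-sided over 21 relabellings, p = 0.0476, the smallest these allow; adjusted p = 0.0952 over the 2 ratio tests in these libraries). The ratio of Esrra to Esrrg did not pass between genotypes, with differences of -0.22 in BAT (p = 0.430) and -0.48 in WV (p = 0.460, exact permutation tests, adjusted p = 0.614 for both). Without floxed library 3 the difference in BAT was -0.44 (exact permutation test, p = 0.02, adjusted p = 0.04 over the 2 ratio tests in these libraries). Leaving out any other BAT library gave no pass. Without BAT library FX_5503 the difference was +0.08 (exact permutation test, p = 0.838).

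**Figure D3:**
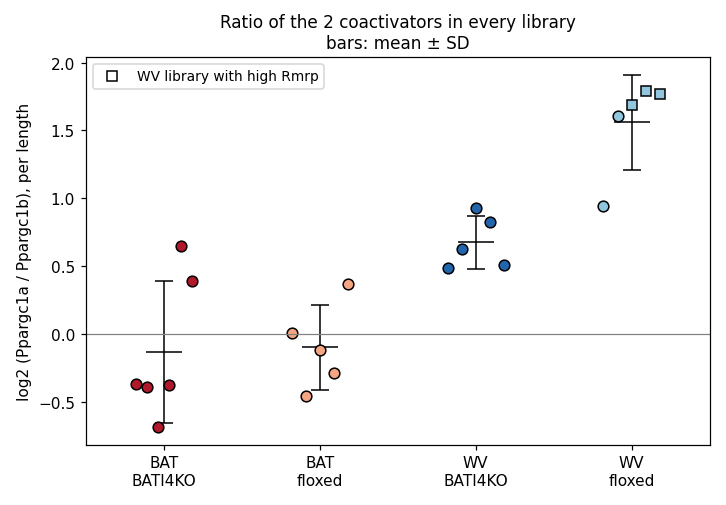
Log2 ratio of Ppargc1a to Ppargc1b per length of the gene model (vertical axis) in every library by group, with bars for mean ± SD and squares for the 3 WV libraries with high Rmrp. BATI4KO muscle lies at 0.49 to 0.92 and floxed muscle at 0.95 to 1.79, while the BAT groups overlap around 0.

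Compared between tissues, 7 of the 9 regulators were higher in BAT than in WV in both genotypes. Lhx8, among the 7, passed the expression filter through its BAT libraries alone. Of 16632 genes tested, 37.4% were higher in BAT in BATI4KO mice and 34.1% in floxed mice. The median log2 difference of the 9 was +1.97 in BATI4KO mice and +2.75 in floxed mice, against +0.14 and +0.11 over all genes, and placing Lhx8 at the bound given below leaves both medians where they are. Title style is a covariate in this fit and only BAT has short numbers.

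Ppara had the widest gap among the receptors. It was at 612 ± 139 CPM in BATI4KO BAT (SD, n = 6) and 56.5 ± 44.4 CPM in BATI4KO WV (SD, n = 5), a log2 difference of +3.37 (SE 0.45, edgeR adjusted p = 9.39e-07). In floxed mice it was at 613 ± 109 CPM in BAT and 67.6 ± 38.1 CPM in WV (SD, n = 5 each; log2 +3.10, SE 0.47, edgeR adjusted p = 5.58e-06). No WV library exceeded 133 CPM and no BAT library was under 434 CPM.

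Esrra and Esrrg, by contrast, did not pass between tissues. Esrra was at 85.4 to 140 CPM in BATI4KO BAT and 86.5 to 146 CPM in BATI4KO WV, and at 67.5 to 147 CPM in floxed BAT and 87.8 to 146 CPM in floxed WV. Esrra differed by +0.16 on the log2 scale in BATI4KO (SE 0.18, edgeR adjusted p = 0.430) and +0.09 in floxed mice (SE 0.19, edgeR adjusted p = 0.687). For Esrrg it was +0.05 (SE 0.47, edgeR adjusted p = 0.929) and +0.01 (SE 0.52, edgeR adjusted p = 0.989), and the large errors came with a range of 4.99 to 66.8 CPM among WV libraries. These 2 results depend on the scaling. With library totals in place of trimmed means, the median gene moved to +1.09 in BATI4KO and +0.79 in floxed mice, and Esrra passed at +1.10 and +0.81, that is, at about the median. Esrrg then passed in BATI4KO mice at +0.998. Over all genes the calls were 11365 higher and 2288 lower in BATI4KO and 9474 higher and 2647 lower in floxed mice with library totals, against 6213 and 5505 in BATI4KO and 5676 and 5276 in floxed mice with trimmed means.

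The coactivators and the lineage regulators were all higher in BAT. Ppargc1a had a log2 difference of +1.48 in BATI4KO (SE 0.29, edgeR adjusted p = 9.67e-05) and +1.502 in floxed mice (SE 0.31, edgeR adjusted p = 0.000213), and its BATI4KO libraries overlapped between tissues, with 107 CPM in BAT library KO_5414 and 116 CPM in WV library KO_5495. Ppargc1b had +1.97 in BATI4KO and +2.75 in floxed mice (edgeR adjusted p = 1.56e-06 and 2.99e-08). Prdm16 had +3.12 and +2.81, and Ebf2 +3.53 and +2.79, in the same order of genotypes (edgeR adjusted p = 1.21e-09 or lower for all 4). Zic1 had the smallest difference of the lineage regulators, at +1.42 in BATI4KO and +1.46 in floxed mice (edgeR adjusted p = 0.000206 and 0.00027).

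Lhx8 came closest to being present in 1 tissue only. In BATI4KO mice it had 362 counts over the BAT libraries and 0 over the WV libraries, which is 66.6-fold higher in BAT, in CPM, when WV is set to 3 counts over the group. The exact 95% interval of that ratio, which counts the error of BAT too, begins at 53.9-fold. In floxed mice it had 335 counts in BAT and 1 in WV, a ratio of 202.5 with an exact 95% interval of 36.1 to 8021 that covers counting error only. Except for Ppargc1a in BATI4KO mice, none of the 7 regulators overlapped between tissues, where 28.8% of genes in BATI4KO and 26.3% in floxed mice were higher in BAT without overlap.

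**Figure D4:**
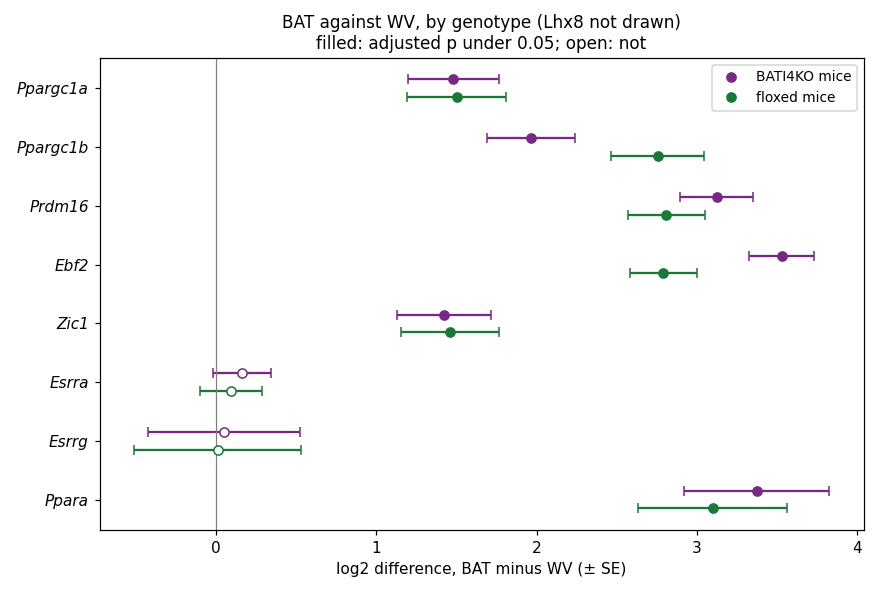
Log2 difference of 8 regulators, BAT minus WV, in BATI4KO (purple) and floxed mice (green), with SE from edgeR's test as bars, filled circles for values that passed and open ones for those that did not. With trimmed-mean scaling (library totals gave calls for Esrra in both genotypes and Esrrg in BATI4KO), Esrra and Esrrg sit near 0 with open circles, and the other 6 lie between +1.42 and +3.53.

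Per length of the gene model, the order of levels differed between tissues. In BATI4KO BAT, Ppara led with 81.3 ± 18.5 CPM per kilobase (SD, n = 6), clear of the next gene. Ppargc1b (31.4), Ppargc1a (29.9) and Esrra (25.3 CPM per kilobase) followed, each overlapping with the next, and then Ebf2 (17.6), Esrrg (7.28), Prdm16 (5.20), Zic1 (1.17) and Lhx8 (0.805 CPM per kilobase). Of these, Ebf2 overlapped with Esrra above it, Esrrg with Prdm16 and Zic1 with Lhx8. The order of the means was the same in floxed BAT, where Ebf2 (12.2), Zic1 (1.34) and Lhx8 (0.846 CPM per kilobase) overlapped with no neighbour. In WV, Esrra led with 26.6 ± 6.19 CPM per kilobase in BATI4KO and 28.1 ± 5.98 in floxed libraries (SD, n = 5 each), clear of Ppargc1a at 11.7 CPM per kilobase in BATI4KO and 11.6 in floxed libraries. Ppara, Ppargc1b and Esrrg came next and overlapped with each other, followed by Ebf2 at 1.496 CPM per kilobase in BATI4KO and 1.73 in floxed libraries, which overlapped with Ppargc1b in floxed libraries. Prdm16 and Zic1 were at 0.408 to 0.445 CPM per kilobase in WV of both genotypes and overlapped with each other.

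The sequences before the start sites are shown for 3 members that the tissue comparison set apart: Ppargc1a and Ppara, higher in BAT, and Esrra, which did not pass between tissues. They are the 250 bases before the RefSeq start on build GRCm38.p6 (the count tables used mm9), printed along the strand of the gene. Ppargc1a is at chr5:51567726-51567975 on the minus strand, Ppara at chr15:85735526-85735775 on the plus strand and Esrra at chr19:6921809-6922058 on the minus strand. Capitals mark TGACG, the core bound by cyclic AMP responsive factors, or GGGCGG, the GC box, on either strand.
Ppargc1a: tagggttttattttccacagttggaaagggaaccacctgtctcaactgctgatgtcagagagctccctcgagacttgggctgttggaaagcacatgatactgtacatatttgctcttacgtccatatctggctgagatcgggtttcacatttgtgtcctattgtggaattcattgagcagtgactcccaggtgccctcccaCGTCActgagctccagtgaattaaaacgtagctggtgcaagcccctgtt
Ppara: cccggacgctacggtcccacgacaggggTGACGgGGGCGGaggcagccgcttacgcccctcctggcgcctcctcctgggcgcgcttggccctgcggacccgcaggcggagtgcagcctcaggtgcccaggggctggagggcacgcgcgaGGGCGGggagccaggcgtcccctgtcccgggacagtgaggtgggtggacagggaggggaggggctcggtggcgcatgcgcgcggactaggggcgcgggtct
Esrra: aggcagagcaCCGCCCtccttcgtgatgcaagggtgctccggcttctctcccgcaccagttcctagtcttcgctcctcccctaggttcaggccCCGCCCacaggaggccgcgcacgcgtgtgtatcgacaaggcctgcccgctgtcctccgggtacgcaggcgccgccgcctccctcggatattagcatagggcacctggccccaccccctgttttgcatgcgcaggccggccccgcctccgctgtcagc

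RefSeq windows were matched for 7 of the 9 regulators (10 windows, 4 of them of Esrrg), and not for Ebf2 and Ppargc1b. None of the 10 held any of 6 motifs searched on both strands: the ERR element TCAAGGTCA (found in 0.387% of all 32851 windows), its core AAGGTCA, contained in the ERR element (4.08%), the PPAR element of 2 copies of AGGTCA with any 1 base between them (0.0335%), the interferon-stimulated element of GAAA, any 2 bases and GAAA (2.98%), the EBF palindrome of TCCC, any 2 bases and GGGA (0.779%) and the cyclic AMP element TGACGTCA (1.55%). TGACG, part of the last, was in the windows of Ppargc1a and Ppara and in 17.8% of all windows. GGGCGG was in 6 of the 10 windows, those of Esrra, Ppara, Prdm16, Zic1 and 2 of Esrrg, and in 32.7% of all. These 2 motifs were added after the windows had been read. The window of Ppargc1a was 48.0% GC with 5 CpG, against 76.4% with 27 CpG for Ppara and 68.4% with 22 CpG for Esrra; the median of all windows was 52.4% with 6 CpG.

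In 5 lists of other genes of the pathway, only Irf4 passed between genotypes, while many genes passed between tissues. Of 19 adipose transcription factors tested in BAT between genotypes, Irf4 was lower and 18 did not pass. In WV 0 of 19 passed. The smallest p there belonged to Cebpb, a C/EBP factor that acts with Prdm16, at 64.6 ± 19.2 CPM in BATI4KO and 112 ± 14.6 CPM in floxed muscle (SD, n = 5 each). Its groups did not overlap, where 1.19% of genes did not, but its log2 difference of -0.82 did not pass (SE 0.17, edgeR adjusted p = 0.229). Klf15, a Krüppel-like factor of muscle and fat metabolism, was next at -0.71 (SE 0.17, edgeR adjusted p = 0.286). Fat cell markers had negative differences in WV too: 6 adipocyte markers summed to 57.2 to 139 CPM in BATI4KO and 86.3 to 196 CPM in floxed libraries, all 5 tested were negative (median log2 -1.24) and 0 passed. Their part in these differences was not tested.

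Between tissues, 9 of the 19 adipose factors were higher and 7 lower in BAT of BATI4KO mice, and 9 higher and 8 lower in floxed mice. Over all genes tested, 37.4% were higher and 33.1% lower in BATI4KO mice, and 34.1% higher and 31.7% lower in floxed mice. Pparg, the master regulator of fat cells, had a log2 difference of +6.66 in BATI4KO and +6.34 in floxed mice. Cebpa, its partner in adipocyte formation, had +6.38 and +5.93. Ebf1, a relative of Ebf2, had +3.25 in BATI4KO mice and Hoxa5, a patterning factor, +3.26 in floxed mice (edgeR adjusted p = 2.23e-12 or lower for all of these).

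Partners and repressors of the regulators numbered 19 tested, and 0 passed between genotypes in either tissue. In BAT the smallest p belonged to Zfp521, a zinc finger repressor of Ebf factors, at 5.42 ± 1.403 CPM in BATI4KO (SD, n = 6) and 3.69 ± 0.83 CPM in floxed libraries (SD, n = 5; log2 +0.61, SE 0.17, edgeR adjusted p = 0.180). Next was Med1, a Mediator subunit that binds nuclear receptors and Prdm16, at -0.27 (edgeR adjusted p = 0.286). In WV they were the nuclear receptor coactivator Ncoa1 at +0.37 and the corepressor Ncor1 at +0.35 (edgeR adjusted p = 0.450 and 0.549). Between tissues, 6 were higher and 6 lower in BAT of BATI4KO mice and 7 higher and 4 lower in floxed mice, of 19 each, against the shares over all genes (37.4% higher and 33.1% lower in BATI4KO, 34.1% and 31.7% in floxed mice). Zfp521 was lower in BAT, by a log2 difference of -2.82 in BATI4KO and -3.29 in floxed mice, and Tle3, a corepressor that acts with PPARγ, was higher by +2.30 and +2.68. Ctbp1, a corepressor that binds Prdm16, had -1.13 in BATI4KO mice, and Rb1, the retinoblastoma protein, +1.12 in floxed mice (edgeR adjusted p = 8.04e-08 or lower for these 6 values). The value of Ctbp1 depends on the scaling, since the median gene moved to +1.09 with library totals in BATI4KO mice, and Ctbp1 was not compared with them.

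The 10 nuclear regulators of mitochondria held no genotype call in BAT or WV. In BAT, Tfb2m, a mitochondrial transcription factor, had -0.34 (SE 0.08, edgeR adjusted p = 0.155) and Gabpa, a subunit of the factor NRF-2, -0.18 (SE 0.11, edgeR adjusted p = 0.441). In WV, Gabpb1, the partner subunit, had +0.28 and Yy1, a zinc finger factor, +0.09 (edgeR adjusted p = 0.567 and 0.824). Between tissues, 1 was higher and 3 were lower in BAT of BATI4KO mice, and 3 were higher and 3 lower in floxed mice, of 10 each, against 37.4% higher and 33.1% lower over all genes in BATI4KO and 34.1% and 31.7% in floxed mice. Tfam, which packages and transcribes mitochondrial DNA, was lower in BAT, at 34.6 ± 5.30 CPM against 72.7 ± 6.33 CPM in WV of BATI4KO mice (SD, n = 6 and 5; log2 -0.90, SE 0.09, edgeR adjusted p = 2.26e-08). In floxed mice its log2 difference was -0.89. Differences of this size depend on the scaling. With library totals in place of trimmed means, the median gene moved from +0.14 to +1.09 in BATI4KO and from +0.11 to +0.79 in floxed mice. Tfam itself was not compared with library totals.

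Of 18 PGC-1 and ERR target genes, 0 passed between genotypes in BAT or in WV, and 15 of the 18 had a negative difference in BAT (median log2 -0.20, against -0.01 over all genes). Pdk4, the kinase that spares glucose, was at 1568 ± 305 CPM in BATI4KO BAT (SD, n = 6) and 2269 ± 402 CPM in floxed BAT (SD, n = 5; log2 -0.54, SE 0.16, edgeR adjusted p = 0.193). Ucp3, a relative of Ucp1, had -0.33 in BAT (SE 0.10, edgeR adjusted p = 0.194) and -0.92 in WV (SE 0.23, edgeR adjusted p = 0.329). Cox5b, a subunit of cytochrome oxidase, had -0.50 in WV (SE 0.24, edgeR adjusted p = 0.582). Between tissues, 6 of 18 were higher and 4 lower in BAT in both genotypes, no larger a share than over all genes (37.4% higher and 33.1% lower in BATI4KO, 34.1% and 31.7% in floxed mice). Acadm, an enzyme of fatty acid oxidation, had +2.24 in BATI4KO and +2.28 in floxed mice. The muscle isoform Cox6a2 was lower in BAT, at 0.154 to 5.92 CPM in BATI4KO BAT and 0.0207 to 0.539 CPM in floxed BAT, against 125 to 190.5 CPM in BATI4KO WV and 116 to 205 CPM in floxed WV.

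Of 15 PPARα target genes tested in BAT, 0 passed between genotypes and 13 had a negative difference (median log2 -0.21, against -0.01 over all genes). Acot2, a mitochondrial thioesterase, was at 36.9 ± 11.95 CPM in BATI4KO BAT (SD, n = 6) and 51.6 ± 13.5 CPM in floxed BAT (SD, n = 5; log2 -0.54, SE 0.14, edgeR adjusted p = 0.162). Slc25a20, the acylcarnitine carrier, had -0.34 (SE 0.12, edgeR adjusted p = 0.214). In WV 0 of 13 passed, with Angptl4, a secreted inhibitor of lipoprotein lipase, at -1.27 (edgeR adjusted p = 0.345). Between tissues 13 of 15 were higher in BAT in both genotypes and 0 were lower, where 37.4% of all genes were higher in BATI4KO and 34.1% in floxed mice. In WV alone only 13 of the 15 passed the expression filter. The others entered through their BAT libraries, so calls for them add no support. Plin2, a lipid droplet coat protein, had +3.65 in BATI4KO and +4.24 in floxed mice, and Angptl4 +6.20 and +5.15 (edgeR adjusted p = 1.19e-11 or lower). Acaa1b, a peroxisomal thiolase, was at 8.56 to 34.1 CPM in BATI4KO BAT and 5.20 to 15.9 CPM in floxed BAT, and at no more than 0.105 CPM in any WV library.

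Across the 11 BAT libraries, the regulators varied together in 1 of 45 relations tested (36 pairs of regulators and each regulator with Ucp1, as deviations from the mean of the title style). These were Ebf2 and Esrrg, with Pearson's r = 0.84 (permutation p = 0.00068, adjusted p = 0.0306) and Spearman's rho = 0.87 (permutation p = 0.00211, adjusted p = 0.0950). Without the 2 libraries farthest from the median of Ebf2, r was 0.76. It was 0.73 among the 6 libraries with short numbers and 0.85 among the 6 BATI4KO libraries, and the other sets have under 6 libraries. No relation passed after leaving out any 1 of the libraries other than BATI4KO library 1 and floxed library 1. Ppargc1a passed with none of the other regulators and not with Ucp1. The genes most like Ppargc1a in these deviations, among 13327 genes with a mean of at least 1 CPM, were Zfp866 (r = 0.92), AK036982 (r = 0.91), Krt10 (r = 0.89), Rnf5 (r = 0.87) and Adnp2 (r = 0.86), as a description over 11 libraries that share 2 title styles.

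In WV, regulators were set against each other and against slow-fibre genes. These relations were tested after the data were seen, over 10 libraries and 36 relations (28 pairs of the 8 regulators and each of them with a slow-fibre score, the mean log2 CPM of 10 slow and oxidative fibre genes such as Myh7, Tnni1 and Myoz2). Of these, 10 passed by Pearson's r, among them 3 of the 8 with the score (Esrrg, Esrra and Ppara). Esrrg was at 13.8, 17.3, 18.7, 48.2 and 66.8 CPM in BATI4KO muscle, against 4.99, 13.1, 26.6, 44.6 and 46.8 CPM in floxed muscle, so that genotypes overlapped while single libraries differed widely. Its r with the score was 0.89 (permutation p = 0.00035, adjusted p = 0.0126), with rho = 0.95 (permutation p = 0.00011, adjusted p = 0.00396). Without the 2 libraries farthest from the median of Esrrg, r was 0.83, and among the 7 libraries with low Rmrp 0.87.

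Ppara, which directs fat oxidation in muscle too, was at 26.1, 31.3, 34.8, 57.0 and 133 CPM in BATI4KO muscle, against 24.1, 36.8, 74.2, 84.1 and 119 CPM in floxed muscle. Its r was 0.82 with the slow-fibre score (permutation p = 0.00523, adjusted p = 0.0235; rho = 0.83, adjusted p = 0.0583) and 0.85 with Esrrg (permutation p = 0.00211, adjusted p = 0.0161; rho = 0.78, adjusted p = 0.0583). Without the 2 libraries farthest from the median of Ppara the first was 0.67, and without the 2 farthest from that of Esrrg the second was 0.79. Ppargc1a passed with Esrrg (r = 0.84, permutation adjusted p = 0.0161; rho = 0.84, adjusted p = 0.0583), with Ppara (r = 0.85, permutation adjusted p = 0.0161; rho = 0.73, adjusted p = 0.0818) and with Prdm16 (r = 0.86, permutation adjusted p = 0.0161; rho = 0.64, adjusted p = 0.155). Without the 2 libraries farthest from the median of Ppargc1a these were 0.82, 0.63 and 0.58. Ppargc1b passed with Esrrg (r = 0.75, permutation adjusted p = 0.0441; rho = 0.79, adjusted p = 0.0583), a relation that rests on 2 libraries, since r was 0.42 without the 2 farthest.

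With the score, Ppargc1a did not pass (r = 0.70, permutation adjusted p = 0.0790; rho = 0.77, adjusted p = 0.0595), and r was 0.42 without the 2 libraries farthest from its median. Nor did Ppargc1b (r = 0.60), Prdm16 (r = 0.57), Ebf2 (r = -0.39) or Zic1 (r = 0.00), with permutation adjusted p from 0.157 to 0.991.

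The remaining 3 relations that passed involve Esrra, whose levels fell into separate sets of 86.5 to 101 CPM and 129 to 146 CPM with 5 libraries each, so no pooled r is given. The number passing was 0 without WV library KO_5495, the one highest in the score and in Esrrg, Ppara, Ppargc1a and Prdm16. It was 6 without FX_5415 and 7 to 12 without any other library. The slow-fibre score was 2.78 to 8.30 in BATI4KO and 1.48 to 6.75 in floxed libraries. All 10 genes of the score had a positive genotype difference in WV (median log2 +1.84), and 0 passed. With the score as a covariate the genotype difference of Esrrg was -0.24, against +0.26 without it, and that of Ppargc1b +0.66 (edgeR adjusted p = 0.381).

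**Figure D5:**
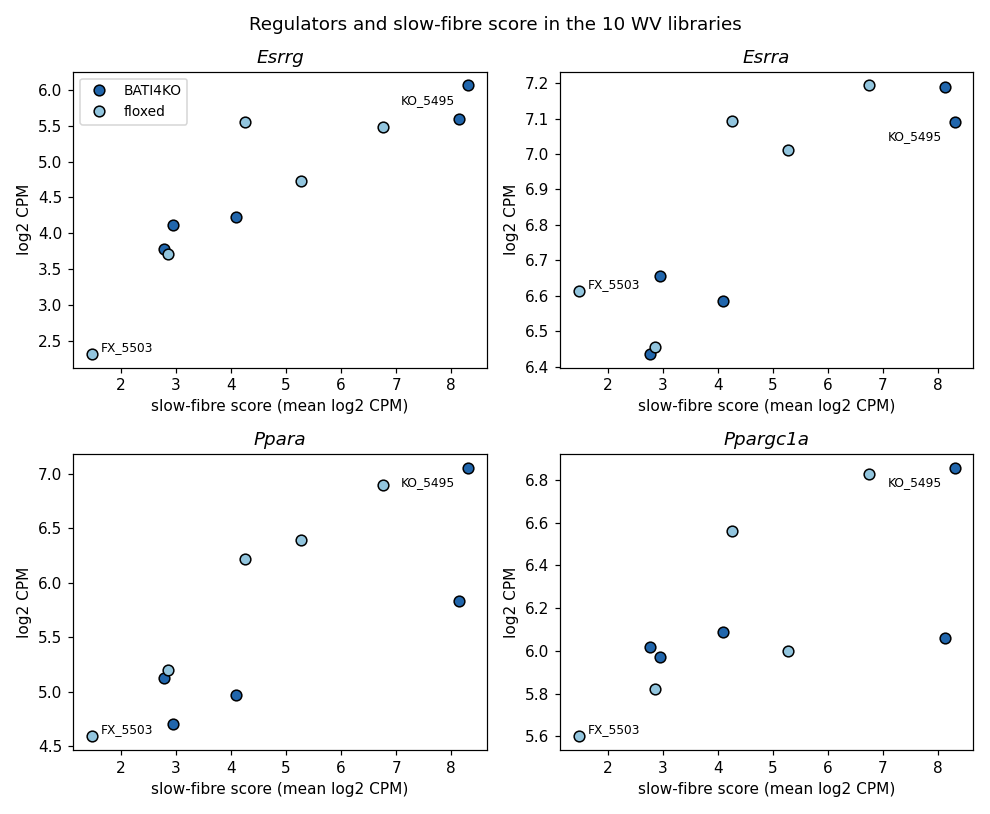
Log2 CPM of Esrrg, Esrra, Ppara and Ppargc1a (vertical axes) against the slow-fibre score (horizontal axes, mean log2 CPM of 10 genes) in the 10 WV libraries, dark blue for BATI4KO and light blue for floxed. Esrrg climbs along the score from FX_5503 at 1.48 to KO_5495 at 8.30, and both genotypes are spread along it, while Ppargc1a did not pass with the score.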

How the data were processed

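Whole BAT and WV were profiled by RNA sequencing of rRNA-depleted total RNA with random-primed cDNA and Nextera XT libraries, per the labels' protocols. The values used are raw read counts per gene model, deposited by the authors in tables with model lengths, per the file headers. The submitters' processing notes name featureCounts 1.4.6, edgeR, TopHat2 2.0.14, build mm9, SAMtools 0.1.19, bcl2fastq 2.17.1.14 and Picard 2.2.4. Their settings, and any use of strand in counting, were not given in the sources used here. Reads from overlapping antisense genes therefore cannot be told apart.

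Counts were tested with edgeR 4.0.16 (R 4.3.3): trimmed-mean (TMM) scaling, filterByExpr, quasi-likelihood test and Benjamini-Hochberg adjustment over all genes tested, with a threshold of 0.05. BAT was fitted with title style as a covariate, WV without one, and all 21 libraries together, with title style, for tissue contrasts and their interaction. Log2 levels used a prior count of 2. Ratios used 0.5 counts added and exact permutation, and correlations used 100000 permutations (Python 3.11.15, SciPy 1.17.1). DESeq2 1.42.0, limma 3.58.1, other scalings, filters, covariates and leaving out each library were alternatives. No 2 libraries of the same group were duplicates: the chi-square per gene between them was at least 30.4. Libraries of different groups were not compared in this way. The test was checked on simulated data for the genotype comparisons, with 200 genes changed, none of them low in counts. Fewer genes passed in these data (7 in BAT and 1 in WV), and with more changed genes the adjustment is easier to pass. The shares recovered may therefore be higher than these data allow. Of genes changed 1.5-fold, 45.2% of 62 passed in BAT and 20.3% of 74 in WV. Of genes changed 2-fold, 78.6% of 70 passed in BAT and 82.1% of 67 in WV. Unchanged genes called numbered 8 in BAT and 4 in WV. Genotype differences of about 1.5-fold, and of 2-fold or more, can therefore be missed. The 16 contractile muscle genes in BAT (median log2 +2.68) and the 10 slow-fibre genes in WV (median log2 +1.84) gave 0 passing.

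The set of regulators, though defined by symbol alone, and the gene lists were chosen with earlier results of these data known. Other genes are named by rule: up to 3 per list passing with the smallest p in a comparison, or, where none passed, the 2 with the smallest p. Of the genes this rule names, 2 are not reported here. Levels between tissues depend on the scaling.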

Additional observations from a re-analysis of the deposited data

Results flagged for a closer look

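In 4 of 35 sets of a regulator in a group, 1 library stood far from the others by Dixon's test, which chance gives in about 1 in 20 groups. WV library KO_5495 accounted for 3 of them: Ppargc1a at 116 CPM, Prdm16 at 5.73 CPM and Ppara at 133 CPM were each well above the other 4 BATI4KO muscle libraries, which reached at most 68.0, 3.58 and 57.0 CPM. The same library had the highest slow-fibre score, 8.30. The fourth was Lhx8 at 0.0370 CPM in WV library FX_5497, which is 1 count where the other floxed muscle libraries had 0.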

How the results depend on the processing

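The tissue calls of the 7 regulators were stable: 448 of 448 values for 14 results kept call and direction over all alternatives and left-out libraries. They include Lhx8, with 32 values in each genotype. With 0 and 1 counts over the WV groups it passed the expression filter through BAT alone, so its values add no support. No regulator passed between genotypes in WV under any alternative run, and in BAT only Ebf2 with DESeq2 (1 regulator). Counts of all genes moved. In BAT 7 genes passed, but 3 with upper-quartile factors or a mean of at least 1 CPM, 372 with DESeq2, 1 without the title style covariate or with the muscle score, 0 with short numbers alone (1212 at an unadjusted edgeR p under 0.05) and 1 to 16 with a library left out (1 without BATI4KO 1, KO_5492, floxed 1 or FX_5497, 2 without floxed 2 or FX_5503, 3 without KO_5494, 4 without BATI4KO 3, 16 without floxed 3). In WV 1 passed, but 6 at a threshold of 0.1, 0 with upper-quartile factors, library totals, a mean of at least 1 CPM or low-Rmrp libraries alone, 5 without a filter, 111 with DESeq2, 3 with the slow-fibre score and 0 to 11 with a library left out (11 without KO_5495, 10 without FX_5413, 0 without KO_5492, KO_5493, KO_5494, FX_5415, FX_5497 or FX_5514). The interaction had 3 genes, 55 with DESeq2, 20 with long tags alone and 3 to 30 with a library left out (30 without BAT BATI4KO 2, 5 without BAT BATI4KO 1).

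Differences near 0 turned in sign without passing. In BAT, Ppara was -0.0026 with RLE factors and DESeq2, -0.0033 with voom, -0.0086 without the style covariate, -0.0294 with short numbers and -0.0106 with the replicate block. Ppargc1a was 0.0193 with upper-quartile factors, 0.1232 with library totals, 0.0154 without style, 0.1503 with long tags and 0.1676 with the muscle score. Esrra was 0.025, 0.1221, 0.0075, 0.0225, 0.0445, 0.1032 and 0.0006 with upper-quartile factors, library totals, voom, no style, short numbers, muscle score and replicate block. Lhx8 was 0.0669 with library totals and 0.0555 with short numbers, and Ppargc1b -0.152 with long tags and -0.0126 with the muscle score. In WV, Prdm16 was -0.0809 with library totals, -0.0926 with the slow-fibre score and -0.066 with low-Rmrp libraries, Ppargc1a 0.0123 with voom, Esrrg -0.2352 with the slow-fibre score, and Esrra 0.0048 and Ppara 0.0197 with low-Rmrp libraries. Between tissues, Esrrg in floxed mice was -0.0351 with RLE, -0.0391 with DESeq2 and -0.0776 with long tags, and Esrra without style was -0.0732 in BATI4KO and -0.1817 in floxed mice. The coactivator ratio difference turned to 0.1775 in BAT with long tags. In WV that difference was not near 0 and kept its sign, but it went from -0.8856 to -0.6024 with low-Rmrp libraries and no longer passed (exact permutation test, adjusted p = 0.0952). The cause of these changes was not tested.

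With a library left out, BAT differences ranged over -0.1388 to 0.1191 for Ppargc1a, -0.0757 to 0.1167 for Ppargc1b, -0.0994 to 0.0801 for Esrra, -0.1219 to 0.1251 for Ppara and -0.1233 to 0.0353 for Lhx8. In WV they ranged over -0.2148 to 0.1795 for Ppargc1a, -0.1682 to 0.1402 for Prdm16, -0.3518 to 0.0749 for Zic1, -0.1503 to 0.5446 for Esrrg and -0.8664 to 0.0198 for Ppara. Tissue differences ranged over -0.1478 to 0.4732 for Esrrg in BATI4KO, and -0.2594 to 0.2957 for Esrrg and -0.0875 to 0.1752 for Esrra in floxed mice. The ratio differences in BAT ranged over -0.19 to 0.0825 for the coactivators and -0.438 to 0.0754 for Esrra to Esrrg, and the relations passing over 0 to 1 in BAT and 0 to 12 in WV.

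Deviations from the mean of group and title style correlated at 0.18, -0.12 and 0.13 for BAT libraries numbered 1, 2 and 3. For BAT and WV libraries with the same tag they correlated at -0.11 (KO_5492), 0.11 (KO_5494), 0.12 (FX_5497) and 0.03 (FX_5503). Such values cannot decide whether these libraries are paired, since each mean rests on only 2 to 5 libraries. The labels do not say whether libraries sharing a number or tag come from the same animal. With the number or tag as a replicate block, 2 genes and 0 regulators passed in BAT, 7 regulators between tissues in each genotype, and 3 genes for the interaction. In WV the genotypes share no tags, so that comparison alone had no such fit. Zic1 and Lhx8 rest on few counts (13 to 70 per WV library for Zic1), which limits their precision.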
